A study of Mus musculus with 6 samples.

Results

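The L1 family and the contactins are cell adhesion molecules of the immunoglobulin superfamily that sit on the surface of axons. Their expression was followed in retinal ganglion cells (RGCs), the neurons whose axons form the optic nerve, at an embryonic and a postnatal age. The 10 genes were taken by symbol from a table of 24060 genes. They were the 4 genes of the L1 family (L1cam, Chl1, Nrcam and Nfasc) and the 6 contactins (Cntn1 to Cntn6). All 10 were found, and all 10 had enough counts to be tested. RNA was sequenced from RGCs of C57BL/6 mice that had received no treatment, in 3 samples from embryonic day 18 (E18, replicates 1, 3 and 4) and 3 samples from postnatal day 5 (P5, replicates 6, 8 and 9). The cells came from retinas dissociated with papain, were depleted of macrophages with antibodies and were then held on dishes coated with an antibody against CD90, the product of Thy1. The comparison bears on how the RGC transcriptome differs between an age of rapid axon growth and a later one.

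L1 family proteins span the membrane and join immunoglobulin and fibronectin type III domains outside the cell to ankyrins, ezrin family proteins and doublecortin inside it. Contactins carry similar outer domains but are held by a lipid anchor, so they act on the cell interior through partners that cross the membrane, among them the contactin-associated proteins and the L1 family itself. In the visual system, these molecules are known for the bundling and steering of optic axons, for the matching of RGC types with their targets, and later for the assembly of the axon initial segment and the node of Ranvier.

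The libraries held 81213639 to 114512853 reads assigned to genes, and each of the 10 genes had 538 to 128763 reads in every sample. Of the 16449 genes that passed the expression filter, 43.4% differed between the ages by edgeR's quasi-likelihood test at an adjusted p under 0.05. Those higher at E18 were 20.8% of the genes tested, and those lower were 22.5%. The RGC label was checked on 15 marker genes, whose summed level was 7520 to 8474 CPM, or counts scaled to a common library size, at E18 and 8238 to 9505 CPM at P5. The markers did not move together, with 3 higher at E18 and 4 lower, and Nefl (1636 to 3462 CPM) and Stmn2 (935 to 1209 CPM) made up much of the sum. Thy1, the antigen used for panning, was itself lower at E18, with a log2 fold change of -1.16. Dividing cell and progenitor genes (15 genes, 8 higher at E18) summed to 517, 178 and 103 CPM in E18 replicates 1, 3 and 4 and to 76.3 to 96.6 CPM at P5. Some amacrine genes were also uneven at E18, with Tfap2b at 47.5, 119 and 1.62 CPM in E18 replicates 1, 3 and 4. In such bulk samples, fewer cells of a type and less RNA per cell cannot be told apart. No label says whether samples were pooled from several animals or came from separate ones, so p-values measure only the spread between these samples. The count column of E18 replicate 1 also bears the numbers 2 and 5, so this sample may be a pool, whereas the other columns bear 1 sample number each.

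Of the 10 genes, 7 were called, where 43.4% of all genes tested were. Nfasc and Cntn5 were higher at E18, 2 of the 10 against 20.8% of all genes tested. Cntn1, Cntn4, Cntn6, Cntn3 and Chl1 were lower, 5 of the 10 against 22.5%. L1cam, Nrcam and Cntn2 did not pass the threshold. The largest difference was that of Cntn1, which was 4.51-fold higher at P5 than at E18. All E18 samples lay above all P5 samples in 2 of the 10 genes, against 27.6% of all genes tested. They lay below in 5 of the 10, against 28.5%, and the ages overlapped in the remaining 3. A fall of at least 2-fold at E18 relative to P5 was called in 2 of the 10 genes, Cntn1 and Cntn4, against 9.53% of all genes tested. The median log2 fold change, E18 over P5, was 0.11 in the L1 family and -0.74 in the contactins, against 0.0047 over all genes tested.

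**Figure D1:**
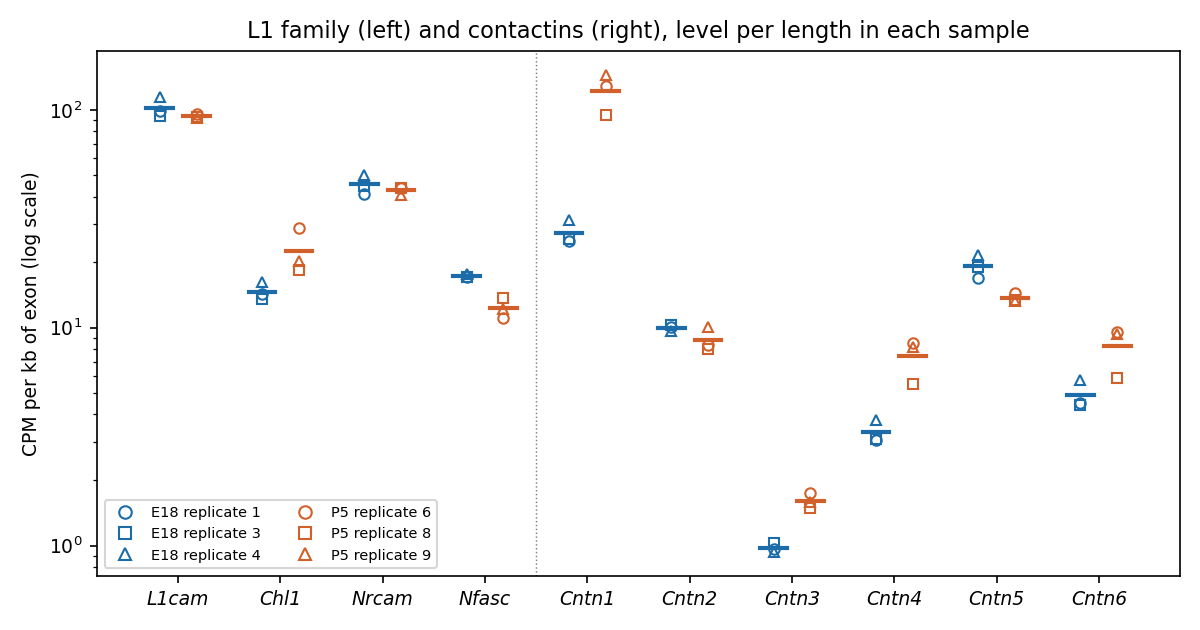
Level of each gene in each sample, as CPM per kilobase (kb) of exon on a log axis, with E18 in blue, P5 in orange, a marker shape for each replicate and a bar at the mean of 3 samples. Cntn1 is the gene with the widest gap between the ages, from a mean of 27.2 CPM per kb at E18 to 123 at P5, while the markers of L1cam, Nrcam and Cntn2 overlap.

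L1cam, the founding member of the family (NM_008478, mm10 chromosome X, 73853778 to 73896105, minus strand), promotes axon growth and keeps optic axons bundled. It was counted at 726, 688 and 840 CPM in the E18 samples and at 703, 685 and 673 CPM in the P5 samples. The P5 values fell inside or just under the E18 range, and the spread was wider at E18. The means were 751 ± 79.1 CPM at E18 and 687 ± 15.1 CPM at P5 (± SD over 3 samples each). The fitted log2 fold change was 0.13 (95% interval -0.09 to 0.34, adjusted p = 0.295 in edgeR's quasi-likelihood fit), a difference within the spread between samples. L1cam shares 100 bases of exon, 1.36% of its exon length, with Arhgap4 on the same strand, which had a mean of 2.61 CPM.

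Nrcam, which is known to help late-growing RGC axons cross the midline at the optic chiasm (NM_176930, chromosome 12, 44328885 to 44601964, plus strand), was the other L1 family gene of high level. Its values were 551, 598 and 673 CPM at E18 and 583, 583 and 545 CPM at P5. The ages overlapped. On the log2 scale the difference, E18 over P5, was 0.09 (95% interval -0.12 to 0.31, adjusted p = 0.463 in edgeR's quasi-likelihood fit).

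Nfasc, or neurofascin, is known for clustering sodium channels at the initial segment and at nodes (NM_182716, chromosome 1, 132564690 to 132741797, minus strand). Its values were 243, 241 and 249 CPM in the E18 samples and 157, 195 and 173 CPM in the P5 samples. Every E18 sample lay above every P5 sample, and the E18 samples were the closest together of any gene of the family, with a SD of 4.15 CPM around a mean of 244. A log2 fold change of 0.48 was fitted (with an SE of 0.0977, 95% interval 0.26 to 0.70, adjusted p = 0.00507 in edgeR's quasi-likelihood fit). Neurons and glia make different proteins from this gene by splicing, and the gene counts do not separate them.

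Chl1, the close homologue of L1 (NM_007697, chromosome 6, 103510586 to 103750211, plus strand), went the other way. It was counted at 175, 167 and 199 CPM in the E18 samples and at 353, 227 and 248 CPM in the P5 samples. All E18 samples lay below all P5 samples, and P5 replicate 6 stood above the other P5 samples. The fitted log2 fold change was -0.62 (with an SE of 0.162, 95% interval -0.98 to -0.25, adjusted p = 0.0155 in edgeR's quasi-likelihood fit). Without P5 replicate 6 it was -0.42 (adjusted p = 0.0253 in the same edgeR fit), and without E18 replicate 3 the call was lost (-0.56, adjusted p = 0.0619 in the same edgeR fit). Set against each other per length, Nfasc was at 1.18 ± 0.0846 times the level of Chl1 at E18 and at 0.578 ± 0.181 times at P5 (± SD over 3 samples each).

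Cntn1 (NM_007727, chromosome 15, 92051165 to 92341967, plus strand) is known as the neuronal side of the paranodal junction, where it joins Cntnap1 and meets neurofascin on the glial side. Its values were 236, 240 and 294 CPM in the E18 samples and 1208, 894 and 1369 CPM in the P5 samples. The lowest P5 sample was above the highest E18 sample by a wide margin. On the log2 scale the difference, E18 over P5, was -2.17 (with an SE of 0.165, 95% interval -2.55 to -1.80, adjusted p = 0.000118 in edgeR's quasi-likelihood fit). That interval did not meet the interval of any other gene of the families. Of all 16449 genes tested, 412 had a lower log2 fold change. Ranked by CPM per kb among 15662 genes, Cntn1 stood at place 1725 at E18 and at place 195 at P5. Over the 14 alternatives run, the log2 fold change stayed between -2.35 (without P5 replicate 8) and -2.04 (without P5 replicate 9).

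Cntn2 (NM_177129, chromosome 1, 132509427 to 132543256, minus strand), also called TAG-1, is found on axons as they grow out and later beside the node together with Cntnap2. It was counted at 94.1, 95.9 and 89.6 CPM at E18 and at 77.9, 74.6 and 93.9 CPM at P5. P5 replicate 9 lay among the E18 samples, and the other P5 samples lay below them. A log2 fold change of 0.18 was fitted (95% interval -0.06 to 0.42, adjusted p = 0.193 in edgeR's quasi-likelihood fit). Without P5 replicate 9 it was 0.29 and passed (adjusted p = 0.0421 in the same edgeR fit). Per length, Cntn1 was at 2.72 ± 0.442 times the level of Cntn2 at E18 and at 13.8 ± 1.80 times at P5 (± SD over 3 samples each).

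Cntn4 (NM_173004, chromosome 6, 105677660 to 106699310, plus strand) is known to work with the amyloid precursor protein App in steering a set of RGC axons to the nucleus of the optic tract. Its values were 26.0, 26.1 and 32.1 CPM in the E18 samples and 72.5, 47.1 and 69.6 CPM in the P5 samples. The ages did not overlap, and P5 replicate 8 was the lowest of its age. Cntn4 was 2.24-fold higher at P5 (log2 fold change -1.17 with an SE of 0.172 and adjusted p = 0.00130 in edgeR's quasi-likelihood fit).

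Cntn5 (NM_001170787, chromosome 9, 9660891 to 10904775, minus strand), which is known to act with Cntnap4 in the dendrites of some RGCs, was the one contactin higher at E18. It had 76.4, 85.9 and 97.6 CPM in the E18 samples and 65.7, 60.9 and 60.3 CPM in the P5 samples. All E18 samples lay above all P5 samples, with the wider spread at E18. The fitted log2 fold change was 0.48 (with an SE of 0.108, 95% interval 0.23 to 0.72, adjusted p = 0.00834 in edgeR's quasi-likelihood fit). An antisense gene, Gm32710, overlaps 290 bases of its exons, 6.40% of their length, and reads of the pair could not be told apart without strand. Per length, Cntn4 was at 0.173 ± 0.00998 times the level of Cntn5 at E18 and at 0.539 ± 0.111 times at P5 (± SD over 3 samples each).

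Cntn6 (NM_017383, chromosome 6, 104492790 to 104863406, plus strand), also called NB-3, had 29.2, 28.6 and 37.5 CPM in the E18 samples and 61.9, 38.1 and 60.8 CPM in the P5 samples. The gap between the ages was narrow, since E18 replicate 4 came close to P5 replicate 8. On the log2 scale the difference, E18 over P5, was -0.75 (with an SE of 0.193, adjusted p = 0.0139 in edgeR's quasi-likelihood fit). The call was lost without E18 replicate 3 (-0.68, adjusted p = 0.0573 in the same edgeR fit) and without P5 replicate 6 (-0.66, adjusted p = 0.0567 in the same edgeR fit).

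Cntn3 (NM_008779, chromosome 6, 102162655 to 102573101, minus strand), also called BIG-1, was the gene of lowest level in both families at both ages. Its values were 6.49, 6.93 and 6.31 CPM at E18 and 11.7, 10.02 and 10.7 CPM at P5. Samples of one age were close together and the ages did not overlap. A log2 fold change of -0.72 was fitted (with an SE of 0.132, adjusted p = 0.00339 in edgeR's quasi-likelihood fit), so that Cntn3 was 1.64-fold higher at P5.

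**Figure D2:**
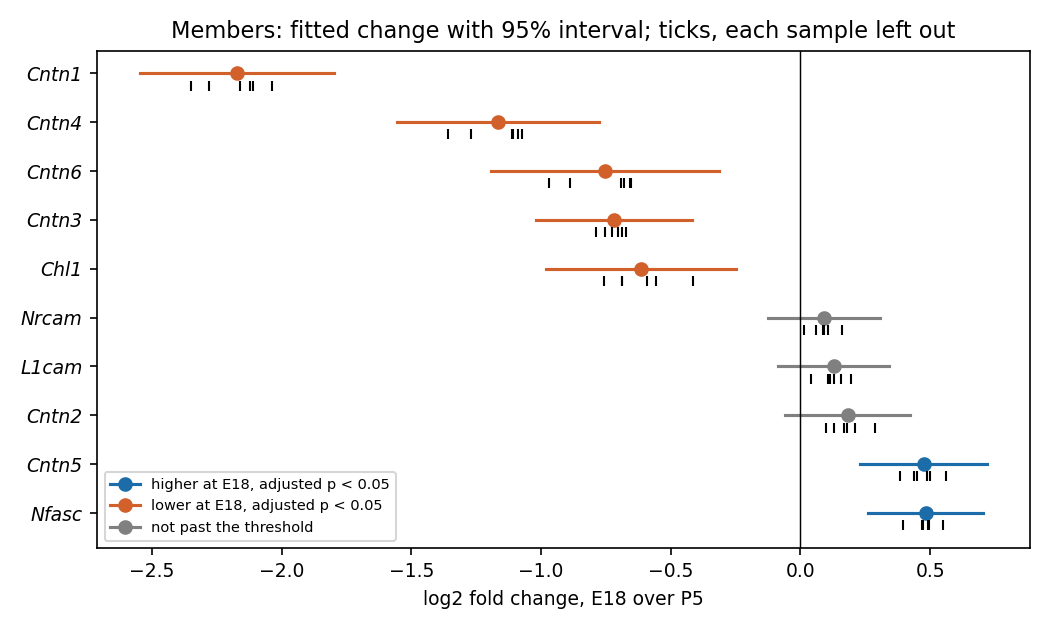
Fitted log2 fold change, E18 over P5, of the 10 genes with its 95% interval (bars) and the value when each of the 6 samples is left out (black ticks). Cntn1 lies at -2.17, the other called falls lie between -1.17 and -0.62, and Cntn5 and Nfasc both lie at 0.48.

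The samples of one age did not contribute alike. In all 5 genes that were lower at E18, P5 replicate 8 was the lowest P5 sample, as it was in 65.5% of all genes called lower. P5 replicate 6 was the highest P5 sample in 4 of these 5, against 23.1% of all genes called lower, and replicate 9 was highest in the other one, Cntn1, against 62.7%. E18 replicate 4 was the highest E18 sample in 8 of the 10 genes, against 40.9% of all genes tested.

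Levels of different genes were compared as CPM per kb of exon. At E18 the order ran from L1cam (102 ± 10.8 CPM per kb; SD, n = 3) through Nrcam (45.5), Cntn1 (27.2), Cntn5 (19.1), Nfasc (17.2), Chl1 (14.7), Cntn2 (10.02), Cntn6 (4.89) and Cntn4 (3.31) to Cntn3 (0.977). Of the neighbours in this order, Cntn5 and Nfasc had samples that overlapped. At P5, Cntn1 (123 ± 25.6 CPM per kb; SD, n = 3) had the highest mean, but its samples overlapped those of L1cam (93.5 ± 2.05). Chl1 (22.5) passed Cntn5 (13.8) and Nfasc (12.3). Samples overlapped at P5 between Cntn5 and Nfasc, between Cntn2 (8.83) and Cntn6 (8.25), and between Cntn6 and Cntn4 (7.43). Nrcam (42.7) and Cntn3 (1.61) stood clear of their neighbours. Part of this order depends on the length used. With the longest transcript as length, the P5 samples of Cntn1 (158 to 241 CPM per kb) lay above those of L1cam (131 to 137), and Chl1 had a higher mean than Cntn5 already at E18 (23.8 against 20.7).

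The sum of the L1 family was 180 ± 16.4 CPM per kb at E18 and 171 ± 7.31 at P5 (± SD over 3 samples each), a difference smaller than the spread at E18. L1cam held 56.9% ± 1.28 of it at E18 and 54.7% ± 1.13 at P5, and Nrcam held 25.3% and 24.97%. The share of Chl1 went from 8.17% ± 0.136 to 13.1% ± 2.64, while that of Nfasc went from 9.64% to 7.243%. The sum of the contactins was 65.5 ± 6.47 CPM per kb at E18 and 163 ± 30.1 at P5 (SD, n = 3 at each age), with no overlap between the ages. Cntn1 held 41.4% ± 1.28 of the contactin sum at E18 and 75.2% ± 1.98 at P5. Cntn5 held 29.1% ± 1.14 and then 8.66% ± 1.67, and Cntn2 held 15.4% ± 1.91 and then 5.50% ± 0.660. Cntn4 held 5.05% ± 0.163 and then 4.56% ± 0.391, although its mean level went from 3.31 to 7.43 CPM per kb. A lower share of a larger sum is thus not a lower level, and Cntn2 did not pass the threshold. The ratio of Cntn1 to L1cam, per length, went from 0.266 ± 0.0109 at E18 to 1.31 ± 0.284 at P5.

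**Figure D3:**
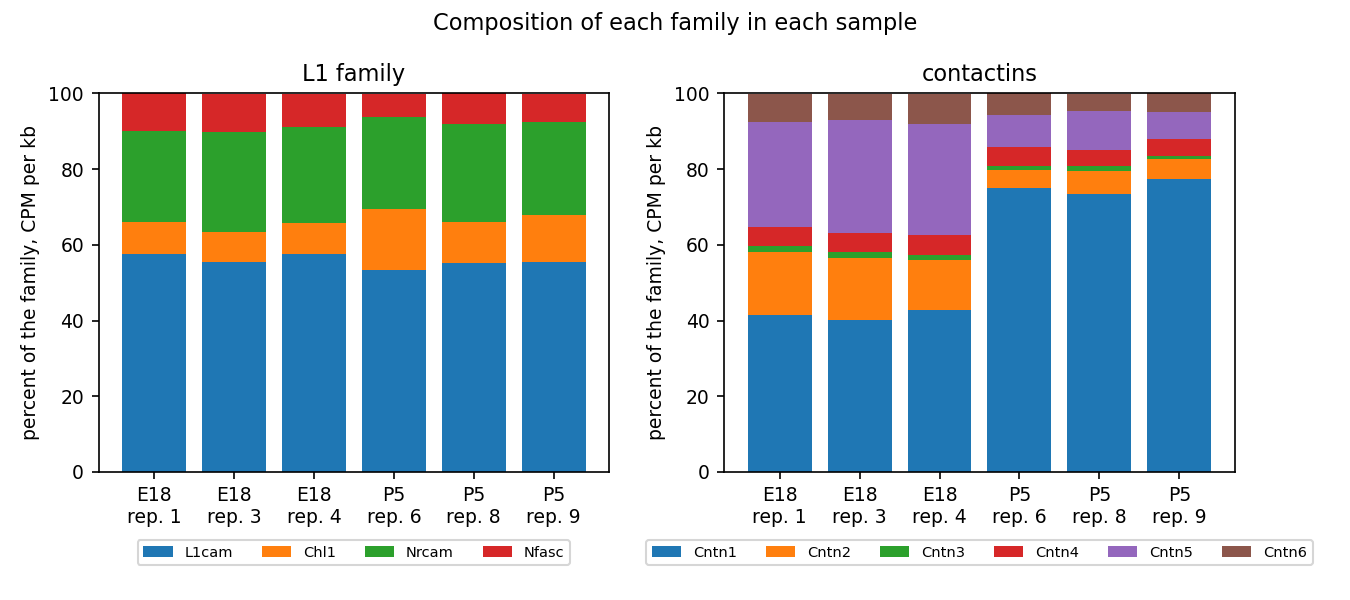
Share of each gene in the length-scaled sum (CPM per kb) of its family in each of the 6 samples, as stacked bars that reach 100 percent. The L1 family bars are alike apart from Chl1 and Nfasc, while in the contactin bars Cntn1 takes 40.2% to 42.8% of each E18 sample and 73.4% to 77.3% of each P5 sample.

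The chromosome position of the genes was looked at after their values were seen. Cntn3, Chl1, Cntn6 and Cntn4 lie in this order within 4.54 megabases of chromosome 6. All 4 were lower at E18, against 22.5% of all genes tested. The table holds 6 genes in this stretch, and these were the only 4 with enough counts to be tested. Of the 5 tested genes on each side, none was called by edgeR's quasi-likelihood test, against 43.4% of all genes tested. Among these 10 genes, 2 had an unadjusted p under 0.05 in that test and 1 was called by DESeq2. Their log2 fold changes ran from -0.43 (Gxylt2) to 0.88 (Pdzrn3) on the Cntn3 side. On the Cntn4 side all were negative, from -1.49 (Il5ra) to -0.10 (Trnt1). Some of the 10 genes were barely counted, with Il5ra at a mean of 0.098 CPM and Gxylt2 at 0.19 CPM. On chromosome 1, Cntn2 and Nfasc are 21.4 kb apart. Most tested genes on either side of this pair were called, against 43.4% of all genes tested. Nuak2, Tmem81, Mdm4, Pik3c2b, Ppp1r15b and Plekha6 were higher at E18, and Tmcc2 and Dstyk were lower. Rbbp5 and Lrrn2 did not pass. Gm10538, an antisense gene inside Nfasc that shares no exon bases with it, was called higher at E18 too. Its log2 fold change was 1.08 (adjusted p = 0.0104 in edgeR's quasi-likelihood fit), at a mean of 1.42 CPM.

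The 250 bases upstream of the RefSeq start sites were read in build GRCm38.p6, whose coordinates are those of mm10, and all 10 genes matched, with 16 windows. The outermost windows of the 5 genes that were lower at E18 held 26.4% to 53.6% G and C with 0 to 8 CpG dinucleotides. Those of the 3 genes that did not pass held 61.2% to 72.4% with 10 to 25, and those of Nfasc and Cntn5 held 52.0% and 64.8% with 4 and 24. The median of all 32851 windows was 52.4% with 6 CpG. Only the windows of Cntn1, Cntn5 and Nrcam end at the outermost start of the GENCODE gene. In the other 7 genes, transcripts also start further upstream, so these windows are not their only promoters. Of the 5 genes lower at E18, only Cntn1 thus has its window at the gene start, with 53.6% G and C and 7 CpG. The window of Cntn3, at 102464668 to 102464917, lies far inside a minus-strand gene whose outermost start is at 102573101. That of Cntn4 lies far inside a plus-strand gene whose outermost start is at 105677660. The ranges by call therefore do not compare like promoters. The windows of Chl1 and Cntn6 lie wholly in annotated exon, and those of Cntn2 and Nfasc overlap exon by 103 and 80 of their 250 bases. The sequences of 4 genes whose windows hold no annotated exon are given to show this range, with Cntn1 and Cntn4 for genes lower at E18, Cntn5 for a gene higher at E18 and Nrcam for a gene that did not pass. They lie at chr15:92050915-92051164 (plus strand), chr6:106118515-106118764 (plus strand), chr9:10904776-10905025 (minus strand) and chr12:44328635-44328884 (plus strand). Each is written 5′ to 3′ toward its start site, with CpG dinucleotides in capitals.
Cntn1: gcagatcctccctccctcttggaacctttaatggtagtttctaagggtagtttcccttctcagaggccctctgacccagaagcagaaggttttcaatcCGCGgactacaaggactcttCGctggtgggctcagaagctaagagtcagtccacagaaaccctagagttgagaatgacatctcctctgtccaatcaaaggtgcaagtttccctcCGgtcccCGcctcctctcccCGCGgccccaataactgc
Cntn4: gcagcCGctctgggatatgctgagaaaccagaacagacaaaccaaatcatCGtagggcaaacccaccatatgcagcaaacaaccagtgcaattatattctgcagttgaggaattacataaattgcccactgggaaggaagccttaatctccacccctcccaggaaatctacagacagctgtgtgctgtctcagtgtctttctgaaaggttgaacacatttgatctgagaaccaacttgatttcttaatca
Cntn5: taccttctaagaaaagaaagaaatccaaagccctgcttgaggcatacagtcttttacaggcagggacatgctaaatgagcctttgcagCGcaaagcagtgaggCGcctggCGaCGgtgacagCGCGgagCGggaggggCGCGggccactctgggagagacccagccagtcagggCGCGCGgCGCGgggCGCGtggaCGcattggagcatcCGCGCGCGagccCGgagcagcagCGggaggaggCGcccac
Nrcam: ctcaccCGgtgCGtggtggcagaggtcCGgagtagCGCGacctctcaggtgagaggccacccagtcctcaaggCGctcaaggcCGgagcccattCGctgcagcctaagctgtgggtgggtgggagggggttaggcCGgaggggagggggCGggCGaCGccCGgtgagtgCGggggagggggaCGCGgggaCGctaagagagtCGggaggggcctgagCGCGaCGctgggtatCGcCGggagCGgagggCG
The outermost window of Cntn1 holds 7 CpG and that of Cntn4 holds 2, against 24 in Cntn5 and 25 in Nrcam. The inner window of Cntn4 holds 12 CpG and overlaps exon by 177 of its 250 bases. This count is above the 0 to 8 CpG in the outermost windows of genes lower at E18. The inner windows of Cntn1 hold 3 each, and those of Nfasc, Cntn5 and L1cam hold 1, 26 and 20. Both strands of the 16 windows were searched for short motifs. The ETS core CCGGAAG, of the kind bound by Elk-1, was in 0 of 16 windows and in 6.91% of all windows. The part TCAGCACC of the REST element was in 0 of 16 and in 1.32% of all windows. Its other part, GGACAGC, was found once, in Chl1, and in 5.28% of all windows. The TATA box TATAAA was found once, in an inner window of Cntn1, and in 12.4% of all windows. These matches describe letters and no binding.

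The binding partners were described by lists, in which each gene was fitted with all others. Of the 7 contactin-associated proteins, which pair with contactins in the membrane and link them to the cytoskeleton, 5 were lower at E18 and 2 did not pass. Over all genes tested, 22.5% were lower. All 7 log2 fold changes were negative, with a median of -0.99. Cntnap5b had 3.41, 3.60 and 2.39 CPM at E18 and 13.4, 8.97 and 13.7 CPM at P5. Its log2 fold change was -1.93 (with an SE of 0.227, adjusted p = 0.000526 in edgeR's quasi-likelihood fit). Cntnap3 was similar in size (-1.76 with an SE of 0.201 and adjusted p = 0.000478 in the same edgeR fit). Cntnap1, the partner of Cntn1 at the paranode, had 18.9, 18.02 and 23.1 CPM at E18 and 48.7, 25.9 and 100 CPM at P5. The ages did not overlap, but the P5 samples spread widely. Its log2 fold change was -1.54 (adjusted p = 0.0153 in the same edgeR fit), which was -0.90 without P5 replicate 9 (adjusted p = 0.0287 in the same edgeR fit) and lost its call without E18 replicate 3 (adjusted p = 0.0542 in the same edgeR fit). Per length, Cntn1 was at 7.99 ± 0.266 times the level of Cntnap1 at E18 and at 15.2 ± 6.53 times at P5 (± SD over 3 samples each). Cntnap5c was low throughout, at 1.30 to 1.81 CPM at E18 and 2.43 to 4.06 CPM at P5, and its call (-0.99, adjusted p = 0.0144 in the same edgeR fit) was lost without E18 replicate 3 or P5 replicate 6. Cntnap2, the partner of Cntn2 and the list's most abundant gene, did not pass (-0.16, adjusted p = 0.151 in the same edgeR fit).

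Of the 13 cytoskeletal anchors of the L1 family, 4 were higher at E18, 4 were lower and 5 did not pass, with a median log2 fold change of -0.15. Over all genes tested, 20.8% were higher and 22.5% lower. Msn, or moesin, of the ezrin family, had 10.2, 6.18 and 4.40 CPM at E18 and 0.914, 1.18 and 0.521 CPM at P5. Every E18 sample lay above every P5 sample (log2 fold change 2.99 with an SE of 0.393 and adjusted p = 0.000839 in edgeR's quasi-likelihood fit). Its relative Ezr was higher too (0.92, adjusted p = 0.0334 in the same edgeR fit), a call that was lost in 4 of the 6 fits without a sample. Both were highest in E18 replicate 1 and lowest in E18 replicate 4 among the E18 samples, as the summed progenitor genes were. Among all genes called higher at E18, 28.5% were highest in E18 replicate 1 and 44.7% were lowest in E18 replicate 4. Ezr had 4.77, 3.10 and 2.58 CPM in the E18 samples. Without E18 replicate 1, the log2 fold change of Msn was 2.60 (adjusted p = 0.00187 in the same edgeR fit) and that of Ezr was 0.63 (adjusted p = 0.121 in the same edgeR fit). Ank1, an ankyrin, and Sptb, a beta spectrin, were lower, by log2 fold changes of -0.95 (adjusted p = 0.000895 in the same edgeR fit) and -0.84 (adjusted p = 0.00630 in the same edgeR fit). Sptan1, the alpha spectrin and the most abundant of the list, did not pass (-0.15, adjusted p = 0.149 in the same edgeR fit). Ank3, the ankyrin that holds neurofascin at the initial segment and a gene named after its value was seen, had 297, 290 and 283 CPM at E18 and 232, 221 and 253 CPM at P5. Its log2 fold change of 0.30 passed (adjusted p = 0.0204 in the same edgeR fit) but not without E18 replicate 1, E18 replicate 3 or P5 replicate 6. Dcx, or doublecortin, which binds neurofascin, is also named after its value was seen and was higher at E18 (0.80, adjusted p = 0.00875 in the same edgeR fit).

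Of the 15 extracellular and membrane partners, 3 were higher at E18, 6 were lower and 6 did not pass, with a median log2 fold change of 0.00. The shares over all genes tested were 20.8% higher and 22.5% lower. Cd24a, a small anchored glycoprotein that binds L1, had 1464, 1692 and 1723 CPM at E18 and 725, 769 and 266 CPM at P5. The ages were well apart, with P5 replicate 9 the lowest (log2 fold change 1.47 with an SE of 0.332 and adjusted p = 0.00810 in edgeR's quasi-likelihood fit). Tnr, a matrix protein that binds Cntn1, was lower at E18 (-1.43, adjusted p = 0.0120 in the same edgeR fit). Gldn, or gliomedin, a ligand of neurofascin at nodes, had 0.541 to 1.15 CPM at E18 and 2.13 to 4.59 CPM at P5 (-1.91, adjusted p = 0.00421 in the same edgeR fit). Notch1, a receptor to which contactins bind, had 26.0, 6.17 and 1.59 CPM at E18 and 1.32 to 1.51 CPM at P5. In the fit, its log2 fold change was 2.97 (adjusted p = 0.0188 in the same edgeR fit), and 1.45 without E18 replicate 1 (adjusted p = 0.0466 in the same edgeR fit). The call was lost without any one of the P5 samples. Its order over the E18 samples was that of the summed progenitor genes, as it was for Msn and Ezr, where shares over all genes are given. The part of progenitor cells in these results was not tested. Ncam1, the most abundant of the list, did not pass (0.07, adjusted p = 0.564 in the same edgeR fit). Named after their values were seen, App and Nrp2, which bind Cntn4 and Nrcam respectively, were lower at E18, by -0.68 (adjusted p = 0.00324 in the same edgeR fit) and -0.80 (adjusted p = 0.000336 in the same edgeR fit).

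Of the 5 proteases that release or cut these molecules, 1 was higher at E18, 1 was lower and 3 did not pass, with a median log2 fold change of 0.09. These counts are near the shares over all genes tested, 20.8% higher and 22.5% lower. Adam10, which sheds the outer part of L1, had 110, 127 and 109 CPM at E18 and 85.1, 86.8 and 72.1 CPM at P5. The ages did not overlap (log2 fold change 0.51 with an SE of 0.107 and adjusted p = 0.00609 in edgeR's quasi-likelihood fit). Psen2, a subunit of gamma-secretase, was lower (-0.54, adjusted p = 0.00773 in the same edgeR fit). Bace1, which cleaves Chl1, was the most abundant and did not pass (0.02, adjusted p = 0.863 in the same edgeR fit).

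**Figure D4:**
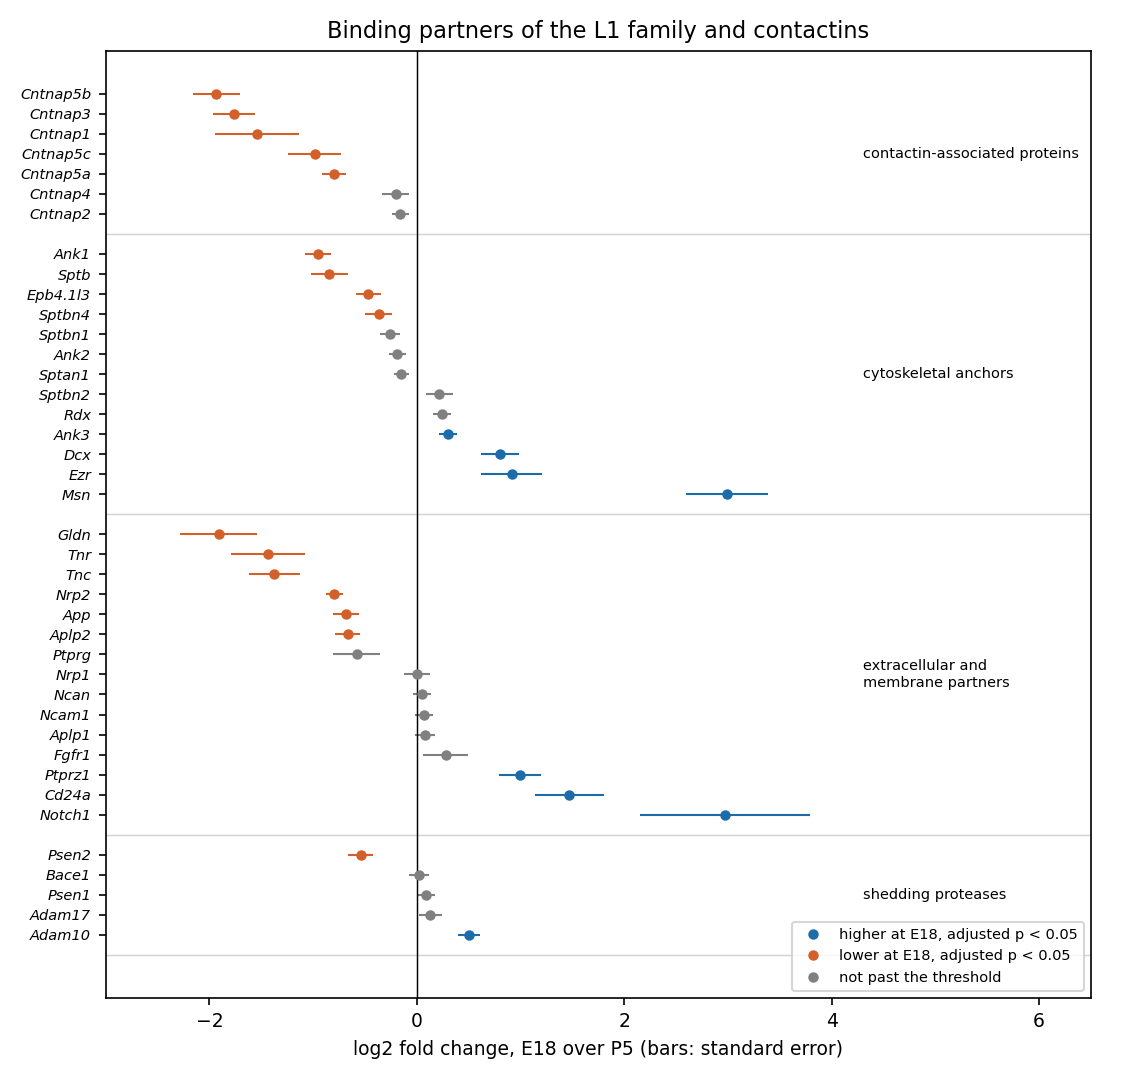
Fitted log2 fold change, E18 over P5, with its standard error for the 40 partner genes in their 4 lists, ordered by value within each list. The contactin-associated proteins all lie at or below -0.16, while the other lists spread to both sides of 0.

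Other cell types of the retina and optic nerve also make some of these molecules, so their marker genes are given beside the results. The 9 oligodendrocyte lineage genes summed to 93.9 to 94.4 CPM at E18 and to 56.4 to 75.5 CPM at P5, with 7 tested, 1 higher at E18 and 2 lower. Mbp (24.9 to 47.8 CPM), Mog and Cnp made up most of the sum. The gene higher at E18 was Mog (log2 fold change 1.28), and those lower were Mag (-1.14) and Olig1 (-3.37, at most 0.237 CPM). Sox10 (0.0213 to 0.110 CPM) and Olig2 (at most 1.22 CPM, and 0 in P5 replicates 6 and 9) were too low to be tested. The 12 genes of Müller glia and astrocytes summed to 405 to 451 CPM at E18 and to 274 to 327 CPM at P5, with 10 tested, 3 higher at E18, and Glul made up most of the sum. Bipolar genes summed to at most 116 CPM, endothelial and pericyte genes to at most 72.8, photoreceptor genes to at most 17.99 and microglial genes to at most 3.33. The part of other cells in the results was not tested. Without E18 replicate 1, which had the highest progenitor sum, the log2 fold changes were -2.11 for Cntn1, -1.11 for Cntn4, -0.70 for Cntn3, -0.69 for Cntn6, -0.59 for Chl1, 0.49 for Nfasc and 0.56 for Cntn5, and all 7 calls held. Without E18 replicate 3, which had the highest Tfap2b, they were -2.12, -1.11, -0.75, -0.68, -0.56, 0.50 and 0.49 in the same order, and the calls of Cntn6 and Chl1 were lost. The fit without E18 replicate 1 still holds replicate 3, with a progenitor sum of 178 CPM against at most 96.6 CPM at P5. E18 replicate 4 had the lowest progenitor sum and the lowest Tfap2b at E18. Without it, the values were -2.28, -1.27, -0.69, -0.89, -0.69, 0.47 and 0.38 in the same order, and all 7 calls held.

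Genes whose levels followed the most extreme members were sought among 9724 genes of at least 10 CPM on average, by Pearson's r of log2 CPM over the 6 samples, as a description of samples that share their age groups. The closest to Cntn1 were Gpr176 (0.9994), Lrrc16a (0.9993) and Fez2 (0.9993), and 209 genes were above 0.99. Their log2 fold changes were smaller than that of Cntn1, at -1.36, -0.76 and -0.61. The closest to Nfasc were Ruvbl2 (0.9992), Csnk1g2 (0.9992) and Zfp513 (0.9985), and 38 genes were above 0.99.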

How the data were processed

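The 6 samples are immunopanned RGCs, 3 from E18 and 3 from P5, grouped by their labels, and the column whose name carries E18 with the numbers 1, 2 and 5 was taken as replicate 1 and may be a pool. The methods name ribosomal RNA depletion, whereas the labels name polyA RNA. The authors sequenced 100-base paired reads, aligned them to mm10 with STAR 2.4.0, assigned them to RefSeq genes by HT-seq 0.6.1, and deposited raw counts. The strand setting is not given in the sources used here. Normalized counts were also deposited, as a signal the authors scaled. The log2 fold changes, p-values and false discovery rates and a rank score deposited by the authors hold their own comparison. None of these columns was used.

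After TMM normalization, edgeR 4.0.16 (R 4.3.3) was used for a quasi-likelihood test of the counts of the genes kept by its expression filter, with Benjamini-Hochberg adjustment over all 16449 and a threshold of 0.05. The script was tested on simulated data. CPM uses library sizes multiplied by the TMM factors, and the raw totals were 81213639 to 114512853 counts. CPM per kb divides by the union of GENCODE exons of mm10. As a check for duplicate libraries, samples of one age were compared over genes, and no pair agreed within sampling noise (chi-square per degree of freedom 30.5 to 141). Promoter windows are those of RefSeq.

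The members, the lists and the rule for named genes were chosen with earlier results of these data known. The text names all 10 members and, per partner list, the 4 called genes with the largest change and the gene with the highest mean CPM. For the most extreme members it also names the 3 genes most like each. Other genes are said to be named after their values were seen. Epb41l3 was matched by its older symbol Epb4.1l3. Alternatives were DESeq2 1.42.0, edgeR's likelihood ratio, exact and robust tests, upper-quartile and RLE normalization, other filters, the longest transcript as length and the omission of each sample. The summed level of the amacrine marker list is not reported here.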

Additional observations from a re-analysis of the deposited data

How the results depend on the processing

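Across 14 alternatives for each of the 10 members, directions did not change, and calls changed for 3 of them, Chl1, Cntn6 and Cntn2, under the omissions given with each gene. With each sample left out in turn, the members called higher at E18 numbered 2 to 3 and those called lower 3 to 5, the lowest without E18 replicate 3. The genes called among all tested ranged from 2137 to 4135 higher and from 2438 to 4661 lower, with the lowest counts without E18 replicate 3 and the highest without P5 replicate 8. Partner genes called higher fell from 8 to 5 without P5 replicate 6. Of the named partners, only Bace1, which was not called, changed sign, to -0.070 without P5 replicate 6, and otherwise reached at most 0.056 (without E18 replicate 1). Dividing by the longest transcript in place of all exons changed the order of levels as given above and moved the mean share of Cntn1 among the contactins to 48.2% at E18 and 78.7% at P5, that of Cntn5 to 22.0% and 5.898%, that of L1cam in its family to 50.1% and 48.0% and that of Nrcam to 33.1% and 32.5%. The causes were not tested. No paired analysis was run, since E18 and P5 samples come from different animals and no label links them. With 3 samples per age, differences as small as those of L1cam, Nrcam and Cntn2 could not be told from 0, and the intervals above bound them. Gene counts do not resolve isoforms.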
